A study of Homo sapiens with 4 samples.

Results

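The amino acid transporter genes examined here are the members of the solute carrier families SLC1, SLC3, SLC6, SLC7, SLC36, SLC38 and SLC43, taken by symbol from all features of the deposited tables. The rule found 59 genes among 60766 features, with 19 in SLC6, 13 in SLC7, 11 in SLC38, 7 in SLC1, 4 in SLC36, 3 in SLC43 and 2 in SLC3. They were compared between 2 libraries of HCT116 cells with ARID1A knockdown (labelled shARID1A) and 2 libraries of control HCT116 cells (labelled CTR). HCT116 is an established human colon carcinoma line, and ARID1A is a subunit of SWI/SNF, a complex that remodels chromatin. All cells were grown in RPMI1640 with serum, glutamine, penicillin and streptomycin. The stated aim of the series concerned ARID1A and immune functions. The labels give neither the hairpin's sequence, nor the number of hairpins or clones, nor what the control carried. Nothing in them says whether replicates came from separate cultures. The p-values therefore measure only how these libraries scatter, which may be technical.

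Amino acids cross the plasma membrane through carriers that work by uniport, by cotransport with sodium or protons, or by exchange of one amino acid for another. Several SLC7 proteins are light chains that reach the surface bound to the glycoprotein SLC3A2, also called CD98 heavy chain. Such exchangers trade intracellular amino acids, often glutamine or glutamate, for leucine or cystine, so they depend on carriers that load the cell with the exchange substrate. In many tumour cells SLC7A5, SLC7A11 and SLC1A5 are abundant, and several of these genes are known targets of the transcription factor ATF4 under amino acid shortage.

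Expression was read as FPKM, fragments per kilobase of transcript scaled to the mapped fragments of each library, so levels can be set side by side between genes. About 75500000 and 74000000 fragments in the knockdown libraries and 68750000 and 71000000 in the controls were estimated from the steps between low values. An FPKM of 1 over 2 kb then rests on 138 to 151 fragments. ARID1A itself was at 7.05 and 6.13 FPKM in the knockdown libraries and at 11.1 and 11.4 FPKM in the controls (limma adjusted p = 0.00438; exact two-sided permutation p = 0.333, the lowest possible with 2 libraries a group). Of 9 colon markers, 6 had a mean of at least 1 FPKM and CDX1 was listed at 0 throughout. Their summed level was 4003 and 4160 FPKM in the knockdown libraries and 3025 and 2920 FPKM in the controls. The keratins KRT8, KRT18 and KRT19, which rose, made up most of it, whereas EPCAM fell to 147 and 141 FPKM in the knockdown libraries, against 312 and 312 FPKM in the controls (2.17-fold lower, limma adjusted p = 0.000363), and CDH1 and CDX2 did not pass. The 5 leukocyte markers summed to at most 1.12 FPKM in any library, with CD3E and TYROBP at 0 in all 4, and the 5 endothelial markers to at most 0.325. The 5 fibroblast markers summed to 6.08 and 6.34 FPKM in the knockdown libraries and 4.90 and 3.69 FPKM in the controls, nearly all of it COL1A1. The part of these shifts in the results was not tested. In such bulk RNA, fewer cells of a kind and less RNA per cell cannot be told apart.

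Most of the expressed transporter genes that changed were lower in the knockdown. Of the 59 genes, 28 had a mean of at least 1 FPKM over the 4 libraries and were tested, and all 28 reached that mean in each group. In the knockdown 13 fell, 3 rose and 12 did not pass (limma, Benjamini-Hochberg adjusted p under 0.05 over 13605 tested features). Across all tested features 37.1% were called, with 18.9% falling and 18.2% rising, while 46.4% of the tested transporter genes fell and 10.7% rose. Their median log2 change was -0.37, against -0.0030 for all tested features, and the median size of the change was 0.48 against 0.18. Log2 changes were computed after adding 1 to each FPKM, so those of weakly expressed genes come out too small. Both knockdown libraries were below both controls for 18 of the 28 genes and above them for 5, where these shares are 36.5% and 35.8% over all tested features. Groups thus did not overlap for 23 of the 28 genes, against 72.3% of all tested features. The falls ranged from 1.41-fold to 4.78-fold as ratios of group means. Falls of at least 2-fold were seen in 4 genes, SLC7A11, SLC1A4, SLC1A3 and SLC3A2, and a rise of that size in SLC43A2, where 2.07% of all tested features fell and 1.53% rose that far. All 13 falls passed the test whichever library was left out, whereas of the 3 rises only that of SLC43A2 did. The count of genes that rose was thus 1 without control replicate 1, control replicate 2 or knockdown replicate 1, and 2 without knockdown replicate 2.

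**Figure D1:**
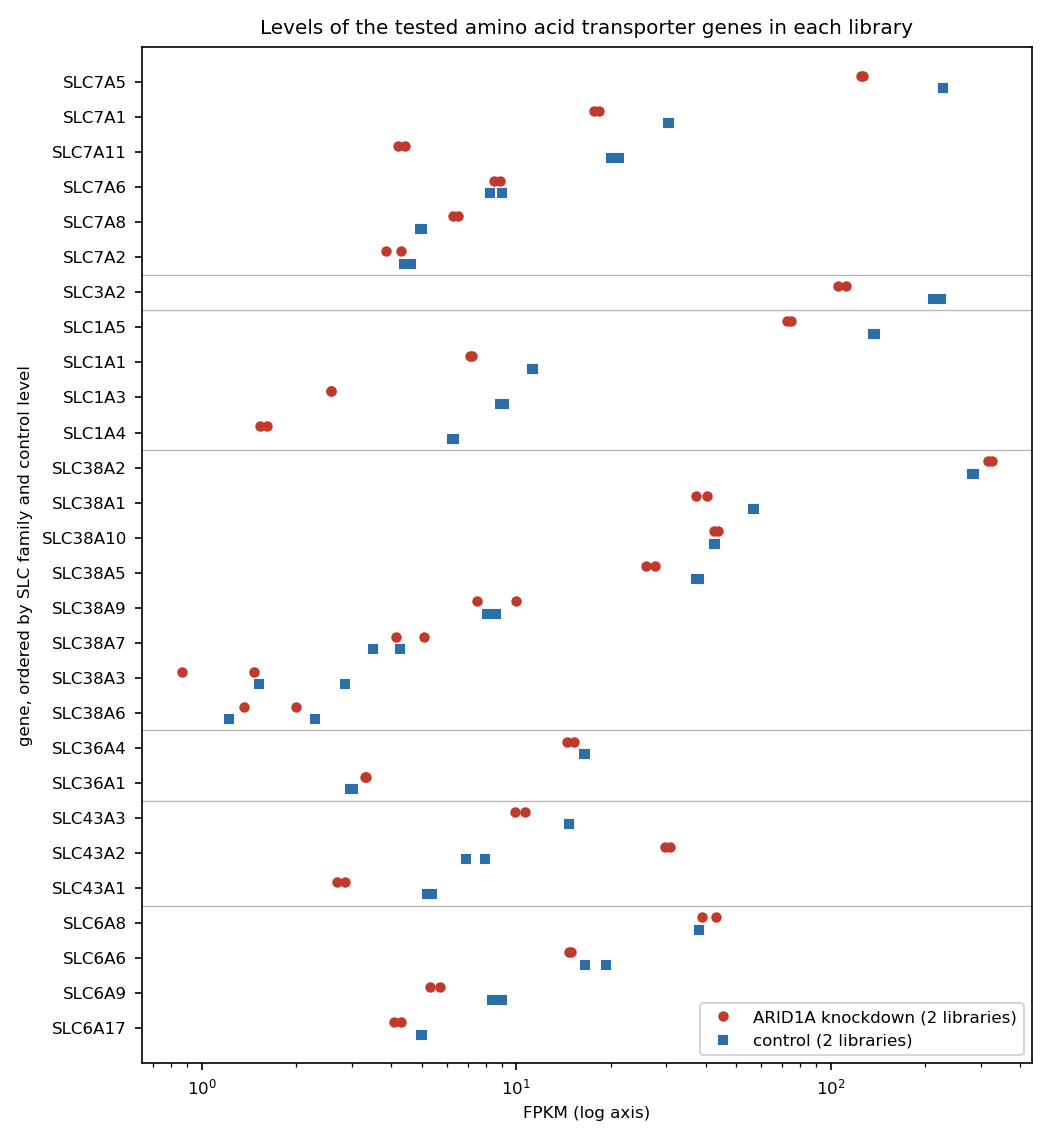
Level in FPKM (log axis) of the 28 tested transporter genes in each library, with ARID1A knockdown libraries as circles above control libraries as squares. For SLC7A11, SLC3A2, SLC7A5 and the 4 SLC1 genes the knockdown points lie left of the control points, while for SLC43A2 they lie to the right.

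The cystine and glutamate exchanger gene SLC7A11 had the largest fall. SLC7A11 (GRCh38 chromosome 4, 138164097 to 138242349) encodes xCT, which imports cystine, the oxidised form of cysteine used for glutathione, in exchange for glutamate. It was at 4.43 and 4.21 FPKM in the knockdown libraries and at 21.2 and 20.1 FPKM in the controls. The means were 4.32 ± 0.156 and 20.6 ± 0.831 FPKM (SD, n = 2 each), 4.78-fold lower in the knockdown, and the groups lay far apart. The log2 change was -2.03 (95% interval -2.18 to -1.87; limma adjusted p = 0.000318), and 0.154% of all tested features had a lower change. Its partner SLC3A2 (chromosome 11, 62856102 to 62888875) was at 106 and 112 FPKM in the knockdown libraries against 224 and 211 FPKM in the controls, a log2 change of -0.99 (95% interval -1.12 to -0.87; limma adjusted p = 0.000672).

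SLC7A5 (chromosome 16, 87830023 to 87869507) encodes LAT1, the exchanger of large neutral amino acids such as leucine and tryptophan. It was the most abundant SLC7 gene, at 125 and 127 FPKM in the knockdown libraries and 228 and 227 FPKM in the controls. Its log2 change was -0.85 (95% interval -0.93 to -0.77; limma adjusted p = 0.000385). Pseudogene copies of SLC7A5 can share its reads. Of these, SLC7A5P1 was at 2.52 and 2.88 FPKM in the knockdown libraries and 1.56 and 2.29 in the controls, and SLC7A5P2 reached at most 2.13 FPKM, both far below SLC7A5.

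Of the other light chains of SLC3A2, SLC7A8 rose and SLC7A6 did not pass. SLC7A8 (chromosome 14, 23125295 to 23183674), which encodes the related exchanger LAT2, rose to 6.54 and 6.29 FPKM in the knockdown libraries, against 5.00 and 4.95 FPKM in the controls (limma adjusted p = 0.0190). This 1.29-fold rise did not pass in any fit that left out 1 library, although its log2 change stayed between 0.29 and 0.34 there. SLC7A6, whose product exchanges cationic for neutral amino acids, was at 8.86 and 8.49 FPKM in the knockdown libraries and 8.23 and 9.001 FPKM in the controls. Its groups overlapped, and the log2 change was 0.01 with a 95% interval of -0.16 to 0.18 (limma adjusted p = 0.923). Reads of SLC7A6 may be mixed with those of SLC7A6OS, which overlaps it.

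The composition of the light chain transcripts is given as a description without a test. The 6 light chain genes summed to 145 and 146 FPKM in the knockdown libraries and 263 and 261 FPKM in the controls. SLC7A5 supplied 86.2% and 86.9% of that sum in the knockdown libraries and 86.7% and 86.9% in the controls. SLC7A11 supplied 3.06% and 2.88% in the knockdown libraries and 8.07% and 7.67% in the controls. The share of SLC7A6 was 6.13% and 5.81% in the knockdown libraries and 3.13% and 3.44% in the controls, and that of SLC7A8 was 4.52% and 4.31% in the knockdown libraries and 1.90% and 1.89% in the controls. SLC7A11 thus held the largest of the minor shares in the controls and ranked below SLC7A6 and SLC7A8 in the knockdown. SLC3A2 stood at 73.1% and 76.5% of the light chain sum in the knockdown libraries and at 85.3% and 80.6% in the controls.

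**Figure D2:**
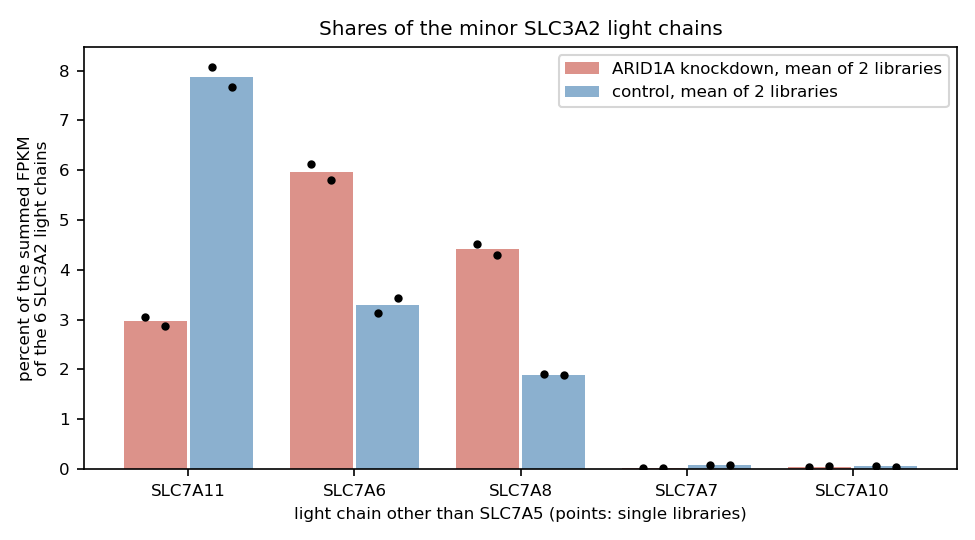
Share of 5 light chain genes in the summed FPKM of all 6 light chain partners of SLC3A2, in percent, with bars for group means and points for single libraries. SLC7A11 is near 3.0% in the knockdown libraries and near 8% in the controls, while SLC7A6 and SLC7A8 hold larger shares of a lower sum in the knockdown. The change in level of SLC7A6 itself did not pass.

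The cationic amino acid carriers encoded by SLC7A1 and SLC7A2 do not bind SLC3A2. SLC7A1 (CAT1; chromosome 13, 29509414 to 29595688), a main uptake route for arginine and lysine, was at 17.7 and 18.3 FPKM in the knockdown libraries against 30.3 and 30.5 FPKM in the controls, a log2 change of -0.72 (limma adjusted p = 0.000993). SLC7A2 was lower in level and did not pass, at 4.31 and 3.84 FPKM in the knockdown libraries and 4.62 and 4.40 FPKM in the controls (log2 change -0.12, 95% interval -0.33 to 0.09). Of the remaining 7 SLC7 genes, below the filter, SLC7A7 was at 0.0220 and 0.0270 FPKM in the knockdown libraries and 0.238 and 0.194 FPKM in the controls. SLC7A9, the light chain of the kidney cystine transporter, was at 0.367 and 0.126 FPKM in the knockdown libraries and 0.266 and 0.137 in the controls.

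All 4 tested SLC1 genes fell. This family holds the sodium-coupled glutamate carriers and the neutral exchangers ASCT1 and ASCT2. SLC1A5 (ASCT2; chromosome 19, 46774883 to 46788594), which exchanges glutamine for other neutral amino acids, was at 72.7 and 74.98 FPKM in the knockdown libraries against 138 and 136 FPKM in the controls. The log2 change was -0.88 (95% interval -0.98 to -0.79; limma adjusted p = 0.000430). SLC1A4 (ASCT1; chromosome 2, 64988477 to 65023865), a carrier of alanine, serine, cysteine and threonine, was 4.005-fold lower, at 1.53 and 1.61 FPKM in the knockdown libraries against 6.32 and 6.24 FPKM in the controls (limma adjusted p = 0.000657).

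The glutamate carrier genes fell as well. SLC1A3 (GLAST; chromosome 5, 36606355 to 36688334) was at 2.57 and 2.57 FPKM in the knockdown libraries and 8.90 and 9.16 FPKM in the controls, 3.51-fold lower (limma adjusted p = 0.000470). SLC1A1 (chromosome 9, 4490468 to 4587469), whose product takes up glutamate and also cysteine, was at 7.12 and 7.25 FPKM in the knockdown libraries and 11.3 and 11.2 FPKM in the controls (limma adjusted p = 0.00240). In each of these 4 genes the knockdown libraries were below both controls by more than the spread within a group. Overlapping features could share reads with SLC1A5, such as AC008622.2 at 1.17 and 1.27 FPKM in the knockdown libraries and 1.58 and 2.80 FPKM in the controls, and with SLC1A4, namely LINC02245 at 1.47 and 1.22 FPKM in the knockdown libraries and 1.60 and 1.43 FPKM in the controls. The other 3 SLC1 genes were below the filter. Of them SLC1A6 was at 0.264 and 0.222 FPKM in the knockdown libraries and at 0.0304 and 0 FPKM in the controls.

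The SLC38 family of sodium-coupled neutral amino acid carriers was divided. SLC38A2 (SNAT2; chromosome 12, 46358188 to 46372773), which accumulates alanine, serine and glutamine and was the most abundant of all 59 genes, rose to 325 and 317 FPKM in the knockdown libraries, against 286 and 281 FPKM in the controls. The rise was 1.13-fold (log2 change 0.18, 95% interval 0.09 to 0.27; limma adjusted p = 0.0172). It did not pass under quantile normalization (log2 change 0.07, limma adjusted p = 0.175) or without the mean-variance trend (0.0525). It also did not pass without control replicate 1, control replicate 2 or knockdown replicate 1. The log2 change of SLC38A2 was 0.16 to 0.19 when 1 library was left out. SLC38A1 (SNAT1; chromosome 12, 46183063 to 46270017), a glutamine carrier, fell to 40.4 and 37.2 FPKM in the knockdown libraries, against 56.9 and 56.6 FPKM in the controls (limma adjusted p = 0.00288). SLC38A5 (SNAT5; chromosome X, 48458537 to 48470260), which couples glutamine transport to proton exchange, fell to 25.9 and 27.5 FPKM in the knockdown libraries, against 38.2 and 37.3 FPKM in the controls (limma adjusted p = 0.00313).

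The other 5 tested SLC38 genes did not pass. SLC38A10 was at 42.5 and 43.7 FPKM in the knockdown libraries and 42.6 and 42.8 FPKM in the controls, with a 95% interval of the log2 change of -0.09 to 0.11. The lysosomal members SLC38A9, an arginine sensor for the kinase mTORC1, and SLC38A7, a glutamine and asparagine carrier, had log2 changes of 0.05 (95% interval -0.30 to 0.40) and 0.20 (95% interval -0.13 to 0.53). The wide intervals of SLC38A3 (-1.21 to 0.12) and SLC38A6 (-0.63 to 0.59) leave room for changes as large as those called elsewhere. The proton-coupled family SLC36 had 2 tested genes, and neither passed. SLC36A1, a carrier of small amino acids found on lysosomes and the plasma membrane, was at 3.34 and 3.31 FPKM in the knockdown libraries and 3.03 and 2.95 in the controls (limma adjusted p = 0.283). SLC36A4 was at 14.5 and 15.3 FPKM in the knockdown libraries and 16.4 and 16.6 FPKM in the controls (limma adjusted p = 0.0851).

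SLC43A2 had the largest rise of the 28 tested genes. It encodes LAT4, a facilitated carrier of leucine, isoleucine, phenylalanine and methionine that works as a uniporter without SLC3A2. SLC43A2 (chromosome 17, 1569267 to 1628886) was at 30.9 and 29.8 FPKM in the knockdown libraries against 7.98 and 6.92 FPKM in the controls. This 4.07-fold rise gave a log2 change of 1.89 (95% interval 1.70 to 2.09; limma adjusted p = 0.000401), and 99.8% of all tested features had a lower change. Without any 1 library its log2 change stayed between 1.80 and 1.98. The paralog SLC43A1 (LAT3; chromosome 11, 57484534 to 57515780), a carrier of the same substrates, fell to 2.69 and 2.86 FPKM in the knockdown libraries, against 5.21 and 5.39 FPKM in the controls (log2 change -0.74, limma adjusted p = 0.00316). SLC43A3 (chromosome 11, 57406954 to 57427580), known as a purine nucleobase carrier rather than an amino acid carrier, was at 10.7 and 9.87 FPKM in the knockdown libraries and 14.7 and 14.7 FPKM in the controls (limma adjusted p = 0.00519). SLC43A2 was thus the family's second gene by level in the controls and its first in the knockdown.

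In SLC6, which also carries neurotransmitters and osmolytes, 4 of 19 genes were tested. SLC6A9 (GLYT1; chromosome 1, 43991500 to 44031467), a sodium- and chloride-coupled glycine carrier, fell to 5.74 and 5.30 FPKM in the knockdown libraries, against 8.39 and 9.01 FPKM in the controls (log2 change -0.57, limma adjusted p = 0.00539). CCDC24, which overlaps SLC6A9, was at 11.9 and 13.1 FPKM in the knockdown libraries and 12.1 and 12.8 FPKM in the controls. A second overlapping feature, AL139220.2, was at 1.81 and 2.17 FPKM in the knockdown libraries and 2.67 and 2.89 FPKM in the controls, lower in the knockdown like SLC6A9. The creatine carrier gene SLC6A8 was the most abundant of the family, at 39.0 and 43.04 FPKM in the knockdown libraries and 38.03 and 38.2 FPKM in the controls (95% interval of the log2 change -0.05 to 0.25, limma adjusted p = 0.225). The taurine carrier gene SLC6A6 (14.7 and 14.9 FPKM in the knockdown libraries, 19.3 and 16.5 FPKM in the controls) and the vesicular carrier gene SLC6A17 (4.09 and 4.31 FPKM in the knockdown libraries, 4.97 and 5.01 FPKM in the controls) did not pass (limma adjusted p = 0.0645 and 0.0716). Their knockdown libraries were nonetheless below both controls.

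**Figure D3:**
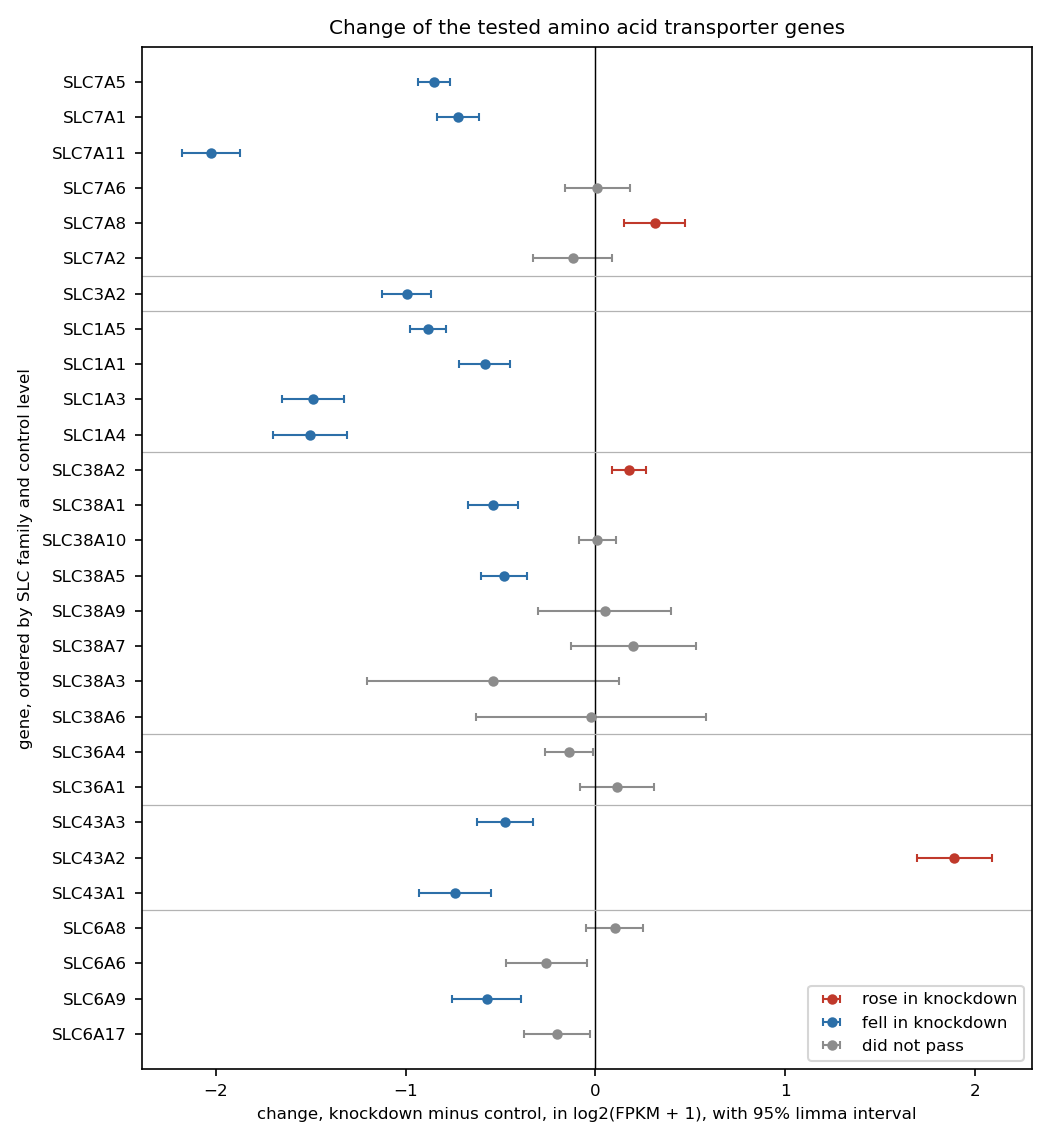
Change of each tested transporter gene, knockdown minus control in log2(FPKM + 1), with its 95% limma interval and colours for genes that rose, fell or did not pass. Intervals are not adjusted for the number of genes, so those of SLC36A4, SLC6A6 and SLC6A17 exclude 0 although the adjusted test was not passed.

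Summed by family, as a description, SLC7, SLC3 and SLC1 had the lower sums in the knockdown. SLC7 summed to 167 and 168 FPKM in the knockdown libraries and 298 and 297 FPKM in the controls, SLC3 to 106 and 112 FPKM in the knockdown libraries against 224 and 211 FPKM in the controls, and SLC1 to 84.3 and 86.8 FPKM in the knockdown libraries against 165 and 163 FPKM in the controls. SLC38 summed to 449 and 443 FPKM in the knockdown libraries and 439 and 435 FPKM in the controls, and most of it was SLC38A2. SLC43 was 1.58-fold higher in sum, at 44.3 and 42.5 FPKM in the knockdown libraries against 27.9 and 26.99 FPKM in the controls. Only SLC43A2 rose in that family, while SLC43A1 and SLC43A3 fell. Most of the SLC7, SLC3 and SLC1 sums likewise came from SLC7A5, SLC3A2 and SLC1A5. SLC6 and SLC36 differed little, with sums 1.06-fold and 1.07-fold lower in the knockdown. All 59 genes together summed to 933 and 940 FPKM in the knockdown libraries and 1246 and 1221 FPKM in the controls. Of that total, SLC38A2, SLC7A5, SLC3A2 and SLC1A5 held 67.3% and 67.1% in the knockdown libraries and 70.4% and 70.0% in the controls.

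**Figure D4:**
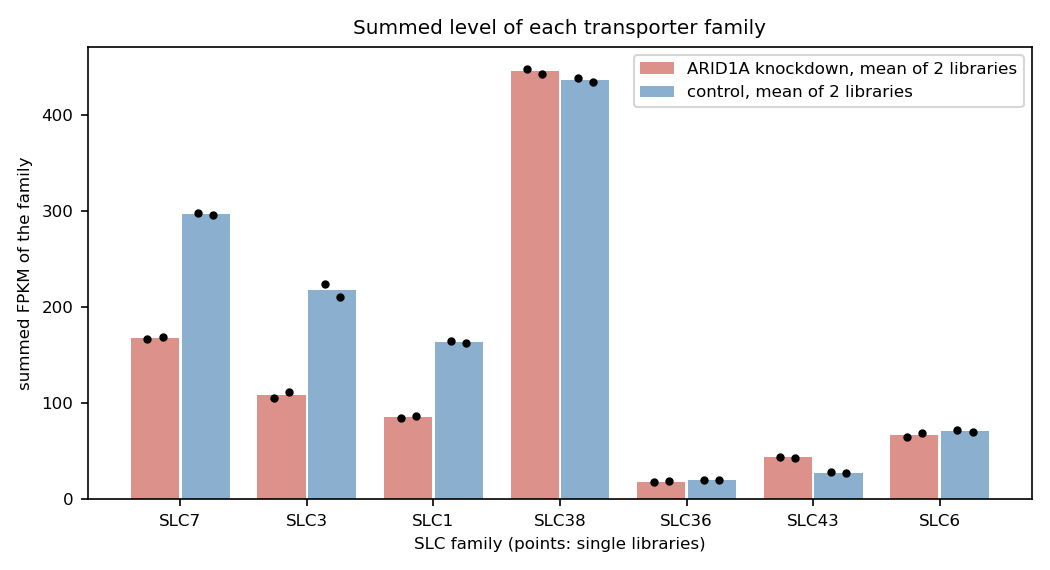
Summed FPKM of the genes of each SLC family, with bars for group means (knockdown left of control) and points for single libraries. SLC7, SLC3 and SLC1 sums are 1.77-fold, 2.00-fold and 1.92-fold lower in the knockdown, the SLC38 sum is similar and the SLC43 sum is higher. Within SLC43 only SLC43A2 rose.

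The 31 genes below the filter included 8 listed at 0 in all 4 libraries. None exceeded 0.949 FPKM in any library, the value of the orphan carrier gene SLC6A16 in knockdown replicate 2. SLC6A16 was at 0.685 and 0.949 FPKM in the knockdown libraries and 0.332 and 0.483 FPKM in the controls. The gut carrier genes SLC6A14 and SLC6A19, which take up amino acids across epithelia, were at no more than 0.0442 and 0.0218 FPKM. The heavy chain SLC3A1, the kidney counterpart of SLC3A2, was at no more than 0.0187 FPKM.

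Promoter windows were examined as a description because several members fell together. RefSeq windows (GRCh38.p14, 250 bases before to 50 after each gene's start) were found for 44 of the 59 genes, including 11 of the 13 that fell. SLC7A11 and SLC43A3 were the other two. The windows were searched on both strands for TGATGNAA, the core of the composite element that ATF4 is known to bind, where N is any base. It was present in 4 of the 11 windows of genes that fell (36.4%), in 2.52% of the 1903 windows of all tested genes that fell, in 1.60% of 9868 windows of tested genes and in 3.67% of all 27305 windows. It was absent from the windows of the 3 genes that rose, SLC38A2, SLC43A2 and SLC7A8, and from the 9 windows found for the 12 genes that did not pass. Bases farther than 250 before or 50 after the start were not searched, so absence holds for these windows only. The 4 stretches are shown because they hold the matches, in capitals, and each reads 5′ to 3′ on the strand of its gene. The SLC3A2 match reads on the opposite strand.
SLC1A3 (chr5:36596348-36596395, plus strand): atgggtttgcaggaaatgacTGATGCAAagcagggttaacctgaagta
SLC38A1 (chr12:46266493-46266540, minus strand): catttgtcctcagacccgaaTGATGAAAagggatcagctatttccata
SLC3A2 (chr11:62881721-62881748, plus strand): aatgtgcaggactccTTACATCAgctcc
SLC7A1 (chr13:29595661-29595701, minus strand): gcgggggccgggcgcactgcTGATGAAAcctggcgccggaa
The RefSeq start of SLC7A1 is the 5′ end of its deposited feature. Those of SLC1A3, SLC38A1 and SLC3A2 lie 9767, 3501 and 25597 bases from the 5′ end of theirs, so those windows do not lie at that end. The SLC1A3 window lies upstream of its deposited feature and wholly outside it, whereas the SLC38A1 and SLC3A2 windows lie inside theirs. Counted from the RefSeq start, the matches lie at -220 to -213 in SLC1A3, -4 to 3 in SLC38A1, 37 to 44 in SLC3A2 and 7 to 14 in SLC7A1. The core of the antioxidant response element, TGACNNNGC, which NRF2 is known to bind, was present in 3 of the 11 windows (27.3%; SLC3A2, SLC7A1 and SLC7A5) and in 15.3% of the windows of tested genes. It was also present in the windows of SLC7A6, which did not pass and holds 2 matches, and of SLC7A7, below the filter. Over all tested genes it was in 13.6% of the windows of those that fell and 16.4% of those that rose. No match of either motif overlapped a match of the other in these windows. A match is a run of letters and shows no binding.

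Genes of related pathways were counted beside the transporters. Other amino acid carriers, mostly of mitochondria and vesicles, were called about as often as all tested features, 37.5% against 37.1%. Of 16 tested, 6 rose and 0 fell (limma; 7 and 1 at an unadjusted p under 0.05), where 18.2% of all tested features rose and 18.9% fell, and the median log2 change was 0.15. The sideroflexin gene SFXN2 was at 4.14 and 3.94 FPKM in the knockdown libraries and 2.03 and 2.30 FPKM in the controls. The mitochondrial branched-chain amino acid carrier gene SLC25A44 was at 9.29 and 10.3 FPKM in the knockdown libraries against 6.28 and 6.68 FPKM in the controls. The glutamate carrier gene SLC25A22 rose 1.41-fold, the aspartate and glutamate exchanger gene SLC25A13 1.43-fold and the aromatic amino acid carrier gene SLC16A10 1.51-fold. SLC16A10 did not pass in any of the 4 fits that left out 1 library (limma adjusted p = 0.0668 to 0.0769), SLC25A13 not without control replicate 2 (0.0546) and SLC25A44 not without control replicate 1 (0.0555). The count of 6 was 3 without control replicate 2.

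Genes that report amino acid levels to mTORC1 mostly did not pass. Of 31 tested, 3 rose and 2 fell, which is 16.1% called against 37.1% of all tested features. SESN1 was at 10.1 and 10.7 FPKM in the knockdown libraries and 5.82 and 5.66 FPKM in the controls (1.81-fold higher), and the leucine sensor gene SESN2 at 10.2 and 11.03 FPKM in the knockdown libraries against 13.3 and 13.1 FPKM in the controls (1.24-fold lower). SESN1 and SESN2 belong to 1 family and are also known p53 targets. The other 3 were NPRL3, which fell 1.28-fold, SEC13, which rose 1.17-fold, and LAMTOR1, which rose 1.14-fold. Of these 5 calls all but that of SESN1 were lost when control replicate 1 was left out (limma adjusted p = 0.0744 to 0.173). The count of 5 was 1 without control replicate 1, 2 without control replicate 2 and 2 without knockdown replicate 2.

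Most genes of the amino acid deprivation response outside the transporters fell, in a list chosen with falls of such genes in these libraries already known. Of 23 tested, 18 fell (78.3%) and 2 rose (8.70%), where 18.9% of all tested features fell and 18.2% rose. The median log2 change was -0.77, against -0.0030 for all tested features. NUPR1, a stress-induced chromatin protein, passed the filter only through the controls, at 0.345 and 0.227 FPKM in the knockdown libraries and 4.56 and 3.41 FPKM in the controls. It is counted among the 18 falls, although a gene that passes in this way could only be lower in the knockdown. The other 22 tested genes had a mean of at least 1 FPKM in both groups. The serine synthesis gene PHGDH was at 72.6 and 66.5 FPKM in the knockdown libraries and 263 and 240 FPKM in the controls, 3.61-fold lower. PSAT1, of the same pathway, was 2.64-fold lower, the pseudokinase gene TRIB3 3.49-fold lower and the asparagine synthetase gene ASNS 3.18-fold lower. ATF4 itself was at 437 and 450 FPKM in the knockdown libraries and 570 and 578 FPKM in the controls, 1.29-fold lower. It and the next 2 genes were chosen after their values were seen. CTH, which makes cysteine from cystathionine, rose 2.26-fold to 23.7 and 23.3 FPKM in the knockdown libraries, against 11.2 and 9.59 FPKM in the controls (limma adjusted p = 0.00152). GCN1, a cofactor of the amino acid sensing kinase GCN2, rose 1.24-fold, a call lost without control replicate 1 (limma adjusted p = 0.0506) or 2 (0.0608).

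Genes for the synthesis and use of glutathione, a product for which cysteine is needed, were mostly higher or did not pass. Of 8 tested, 4 rose, 1 fell and 3 did not pass, so that 62.5% were called against 37.1% of all tested features, of which 18.2% rose and 18.9% fell. The median log2 change was 0.27. Glutathione reductase, GSR, was at 107 and 105 FPKM in the knockdown libraries and 56.5 and 55.5 FPKM in the controls (1.89-fold higher, limma adjusted p = 0.000395). GCLC, the catalytic subunit of the enzyme that joins glutamate and cysteine, was at 37.8 and 34.3 FPKM in the knockdown libraries and 25.4 and 24.0 FPKM in the controls. GGT1 rose 1.30-fold, GPX1 rose 1.21-fold, and the glutathione synthetase gene GSS fell 1.19-fold. Each of these last 3 calls was lost without control replicate 1 or 2 (limma adjusted p = 0.0505 to 0.166), so that the count of 5 called genes was 2 without control replicate 1 and 2 without control replicate 2.

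**Figure D5:**
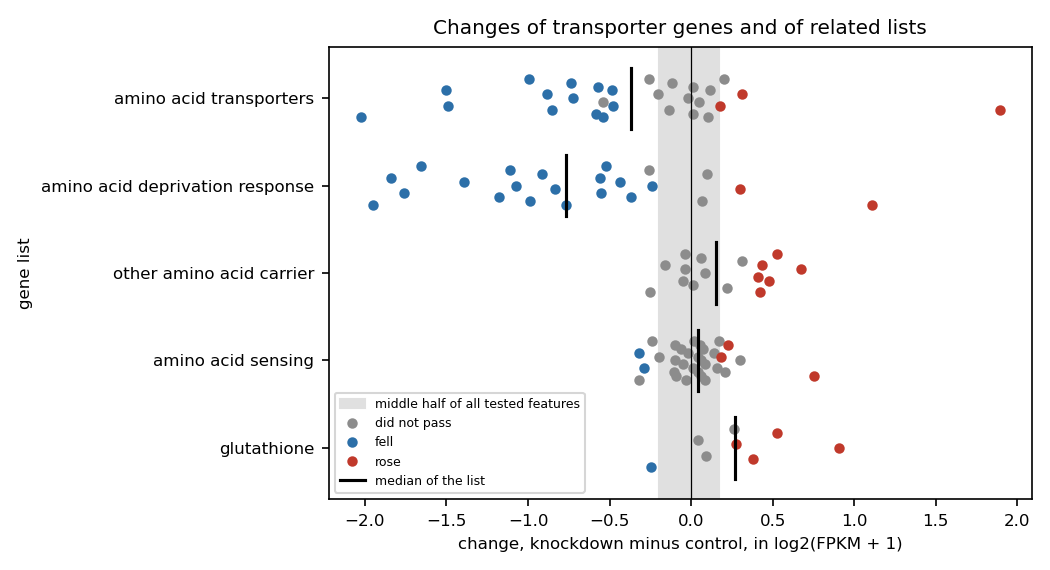
Change of the tested genes of 5 lists, knockdown minus control in log2(FPKM + 1), with a bar at each list's median and shading for the middle of all tested features, between the quartiles. Transporter and deprivation response genes lie mainly to the left of 0, and other carriers and glutathione genes mainly to the right.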

How the data were processed

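For each library the authors deposited FPKM values by gene symbol and locus, per the file headers. The submitters' processing notes name STAR, Cufflinks and GRCh38. For tool versions, annotation release, strand setting and filters the entry is "not given in the sources used here". Without a stated strand setting, a gene's reads cannot be told apart from those of genes that overlap it. Of 60811 rows, 45 second copies of pseudoautosomal genes were dropped, and 2347 values under 1e-09 were set to 0. Deposited starts count from 0 and were raised by 1. The depth was estimated from GENCODE 29 genes with 1 transcript, where 82.2% to 84.8% of low values, those of at most 8 fragments, came within 0.1 of a whole number of fragments. Replicates differed by more than sampling noise (chi-square per degree of freedom 3.36 in the knockdown and 3.84 in the controls). Knockdown minus control was fitted on log2(FPKM + 1) with limma 3.58.1 in R 4.3.3 (lmFit, eBayes with a trend) for features with a mean of at least 1 FPKM, and the code was tested on simulated data. Adjusted p-values are Benjamini-Hochberg values over all 13605 tested features, with 0.05 as threshold. Intervals are 95% limma intervals.

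The members, the 4 further lists and the genes named were chosen with earlier results of these data known. Of 88 list symbols, 86 were found. Values per library are given for the members that passed, for 4 markers and for each family's most abundant gene. They are also given for some other members, among them SLC7A6, SLC7A2, SLC7A7, SLC1A6 and SLC6A16, which no such rule chose. Of each further list up to 5 called genes by size of change are named. Alternatives covered the pseudocount, the filter, scaling, the trend, a replicate block and leaving out each library.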

Additional observations from a re-analysis of the deposited data

How the results depend on the processing

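Over the 28 tested transporter genes and 12 alternatives, 328 values could be compared, of which 313 stayed on their side of the threshold, 9 lost a call and 6 gained one. Of the 313, 10 changed sign, all of 4 genes that did not pass (SLC38A10, SLC38A6, SLC38A9 and SLC7A6, at most 0.26 in log2 change after the switch). No called gene changed sign. All 9 lost calls were those of SLC38A2 and SLC7A8. The gains were those of SLC38A3 without a filter (limma adjusted p = 7.19e-06) and with a replicate block (0.0442), SLC6A6 without a filter (0.00951), under upper quartile scaling (0.0431) and without control replicate 2 (0.0452), and SLC6A17 without the trend (0.0444). The fit without a filter is unreliable, because most features then have no spread. When 1 library was left out, between 13 and 14 transporter genes fell, between 1 and 2 rose, and between 1900 and 3259 of all features were called, against 5046 with all 4. The counts of called genes ranged from 1 to 4 for sensing, 3 to 6 for other carriers, 18 to 19 for the deprivation response and 2 to 5 for glutathione. The sensing count was 8 without a filter. The cause of these differences was not tested. ARID1A had log2 changes of -0.78 to -0.60 over all alternatives. The replicate numbers were not shown to pair the libraries (correlation of same-numbered deviations -0.0099). With the replicate block 4126 features were called, with 14 transporter genes falling and 3 rising. With 2 libraries a group, intervals are wide for genes whose replicates differ. SLC38A3 was at 0.865 and 1.47 FPKM in the knockdown libraries and 1.53 and 2.86 FPKM in the controls.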
